A study of Mus musculus with 6 samples.

Results

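The SLC25 family of mitochondrial carriers was examined in RAW264.7 cells, a transformed mouse macrophage line, after silencing of Ep300. Members were the rows of the deposited gene count table whose symbol is Slc25a followed by a number, which gave 47 genes of 49492 rows. Of these, 38 passed the filter on low counts and were tested, among 15741 genes tested in all. Cells labelled as Ep300 silenced had been transfected for 48 h with 50 nM of an siRNA against Ep300, the gene of the lysine acetyltransferase p300, and the control cells, labelled wild type, with 50 nM of a negative control siRNA. Each group held 3 libraries of stranded mRNA made from 2 µg of total RNA, and the comparison asked how expression differed once Ep300 was silenced. All 6 libraries came from this one line, grown in serum, and nothing in the labels tells if they were separate cultures, so the p-values rest on the spread among these samples, which may be technical.

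SLC25 proteins are built from repeated membrane-spanning modules and sit, with few exceptions, in the inner mitochondrial membrane. They exchange nucleotides, phosphate, carboxylates, amino acids, cofactors and iron between the matrix and the cytosol. In macrophages they stand between glycolysis, the citric acid cycle and the cytosolic uses of citrate and ATP, because the inner membrane lets few of these solutes pass without a carrier.

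Libraries held from 29993567 to 45377510 counts. Ep300 itself was at 51.1, 59.0 and 55.0 CPM (read counts scaled to the TMM-adjusted size of each library) in the 3 Ep300 siRNA libraries and at 106.8, 115.3 and 118.4 CPM in the controls, so silencing was partial. Of 8 macrophage markers, 7 were expressed well enough to test, among them Cd68 at 808.2 ± 45.4 CPM (SD, n = 3) after Ep300 siRNA and 736.6 ± 41.0 CPM in controls, and Mertk was near 0. None of the 7 passed the test with edgeR (1, Csf1r, passed with DESeq2 and with limma-voom), 3 had an unadjusted p under 0.05, against 22.2% of all genes, and the smallest p was that of Csf1r, a growth factor receptor of the lineage, at a log2 fold change of −0.24 ± 0.07 (SE, edgeR adjusted p = 0.0666). The other 2 of these 3 were also negative, Adgre1 at −0.23 and Fcgr1 at −0.36, while the remaining 4 markers, Cd68 among them, had positive values. The summed level of 16 markers of other cell types was 2.42 to 2.73 CPM in the Ep300 siRNA libraries and 2.09 to 2.96 CPM in the controls; 4 of them, Ly6g, Epcam, Alb and Ins2, were at 0 in every library, and of the 3 tested none passed with edgeR, DESeq2 or limma-voom, none had an unadjusted p under 0.05, and the smallest p was that of Gfap (edgeR adjusted p = 0.567).

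Carrier transcripts stayed close to their control levels. Of the 38 tested members, 1 fell, Slc25a51, none rose and 37 did not pass the test (edgeR quasi-likelihood, adjusted p under 0.05 over all genes tested). Across all genes tested 6.78% were called, 2.76% as rises and 4.02% as falls, so 1 of 38 is no larger a share than among all genes. With DESeq2 and with limma-voom 0 members were called, against 8.94% and 6.63% of all genes tested. At an unadjusted edgeR p under 0.05 there were 8 members, against 22.2% of all genes. The median log2 fold change was −0.03 over the members and −0.0038 over all genes tested, and 17 members had positive and 21 negative values. Without regard to sign, the median log2 fold change was 0.09 for the members and 0.14 for all genes tested, at median levels of 17.3 and 13.4 CPM. 

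The data bound most members tightly. For 32 of the 38, the whole 95% interval lay within a 1.5-fold change in either direction, and for 20 within a 1.25-fold change. Over all genes tested those shares were 67.2% and 36.7%. The members whose interval reached past 1.5-fold were Slc25a33 and the low-count Slc25a18, Slc25a42, Slc25a43, Slc25a47 and Slc25a53. The summed level of all 47 members was 1158.8, 1093.0 and 1159.1 CPM in Ep300 siRNA replicates 1, 2 and 3 and 1203.6, 1144.0 and 1128.3 CPM in the controls. These ranges overlap, and the ratio of the means was 0.981.

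**Figure D1:**
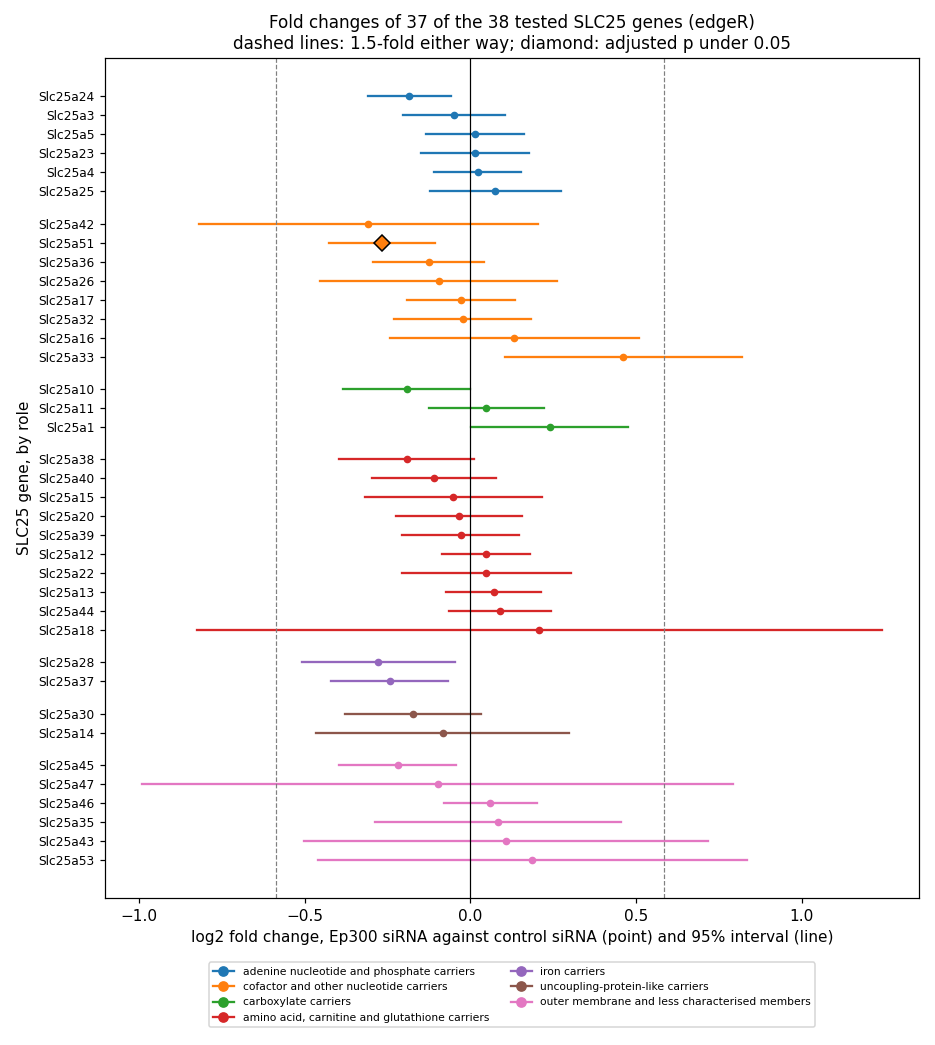
Log2 fold change of 37 of the 38 tested SLC25 genes (x axis, Ep300 siRNA against control siRNA, point) with its 95% interval (line), grouped and coloured by role. Slc25a51, the diamond at −0.27, is the one member past an adjusted p of 0.05, and the highest value, 0.46, is that of Slc25a33, whose interval from 0.10 to 0.82 crosses the dashed 1.5-fold line.

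Promoter sequence is shown for Slc25a33, the tested member with the highest log2 fold change, and for Slc25a24 and Slc25a28, which had negative values with unadjusted p under 0.05. The table of promoters had no entry for Slc25a51 or Slc25a37. Each line is the 250 bases before the RefSeq start (GRCm38.p6), 5′ to 3′ on the strand of the gene. Capitals mark matches, on either strand, to the core of the cyclic AMP response element (CRE, letters TGACG), to an E-box that MYC and its relatives can bind (CACGTG), to the box read by NF-Y (CCAAT), to the GC box read by SP1 (GGGCGG) or to the core motif of ETS factors (CCGGAAGT). None of these motifs contains another.
Slc25a33, chr4:149774268-149774517, minus strand: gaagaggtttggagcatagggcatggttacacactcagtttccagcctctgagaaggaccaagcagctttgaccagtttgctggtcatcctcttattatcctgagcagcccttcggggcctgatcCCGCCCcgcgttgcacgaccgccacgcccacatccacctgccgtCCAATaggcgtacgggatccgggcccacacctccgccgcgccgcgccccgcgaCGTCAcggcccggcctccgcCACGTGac
Slc25a24, chr3:109122899-109123148, plus strand: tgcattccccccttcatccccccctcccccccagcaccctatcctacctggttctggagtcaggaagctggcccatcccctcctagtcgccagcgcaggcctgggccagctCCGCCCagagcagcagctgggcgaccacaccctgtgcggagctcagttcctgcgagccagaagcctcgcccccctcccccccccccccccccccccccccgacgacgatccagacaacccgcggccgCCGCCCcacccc
Slc25a28, chr19:43674882-43675131, minus strand: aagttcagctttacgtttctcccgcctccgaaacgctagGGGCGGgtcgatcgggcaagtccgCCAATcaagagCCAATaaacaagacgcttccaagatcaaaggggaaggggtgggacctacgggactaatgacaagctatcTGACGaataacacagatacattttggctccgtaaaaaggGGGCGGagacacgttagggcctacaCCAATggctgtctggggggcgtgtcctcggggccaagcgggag

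All 3 windows hold a GC box, and those of Slc25a33 and Slc25a28 both hold CCAAT and a CRE core as well. Only the Slc25a33 window has an E-box, which like its CRE core lies close to the start. The Slc25a28 window has CCAAT 3 times, and the Slc25a24 window, 72.8% G and C, has GC boxes alone. Of the other 3 members in the table with an unadjusted p under 0.05, the Slc25a10 window holds none of these letters, that of Slc25a45 has 1 GC box, and that of Slc25a1 has an E-box, CCAAT and GC boxes. Of the 38 tested members, 30 had a promoter in the table, as did 9896 of the genes tested. The E-box CACGTG was found upstream of 6 of the 30 members (20.0%), against 9.9% of tested genes and 6.9% of all 27025 genes listed. GGGCGG was found for 21 members (70.0%, against 61.9% of tested genes and 35.4% of all), CCAAT for 15 (50.0%, against 40.3% and 37.5%) and TGACG for 10 (33.3%, against 30.6% and 19.8%). CCGGAAGT was found for 1 member (3.3%, against 6.8% and 3.2%). A gene with several starts counted once if any of its windows held the letters, and a match is a description of the window, not a site in use.

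Levels within the family spanned orders of magnitude. Compared per kilobase of annotated exon, the 5 highest members were Slc25a5, Slc25a4, Slc25a3, Slc25a11 and Slc25a24. Slc25a5, the ADP/ATP carrier ANT2 that brings ATP out of the matrix in exchange for ADP, led at 63.4 ± 5.14 CPM per kilobase (SD, n = 3) after Ep300 siRNA and 62.8 ± 1.34 in controls. Its relative Slc25a4 (ANT1) followed at 56.9 ± 2.65 and 56.0 ± 1.77 CPM per kilobase, and the ranges over the 6 libraries, 57.5 to 66.9 and 53.9 to 58.7, overlap. The phosphate carrier Slc25a3, which supplies phosphate for ATP synthesis, was at 41.0 ± 1.39 and 42.4 ± 3.62 CPM per kilobase. Exon lengths joined all annotated transcripts of a gene, which lowers the level of a gene with long rare isoforms. In CPM, which does not correct for length, 40.8% of the summed level of the members, as defined by symbol, fell on these 3 genes. The ranking and this share leave out Ucp2, which belongs to the family by sequence under another symbol. Over all libraries Ucp2 had a mean of 247.6 CPM, above the 231.4 CPM of Slc25a3. Its level per kilobase was not computed.

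**Figure D2:**
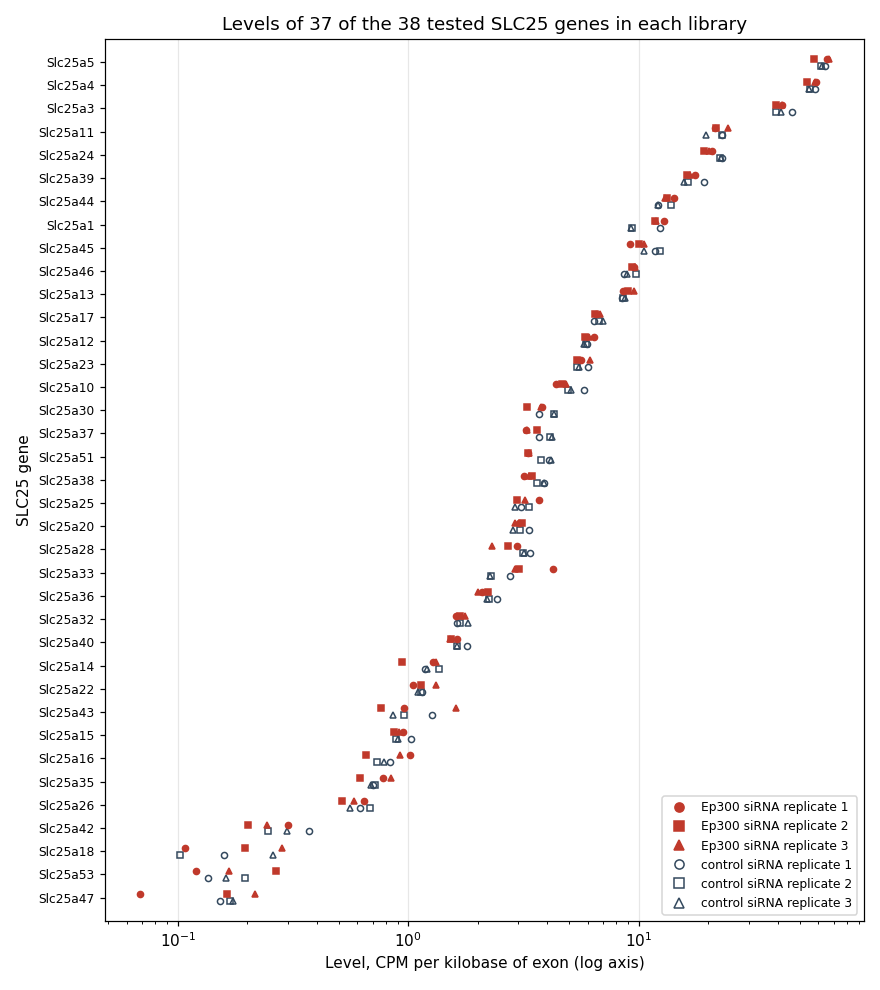
Level of 37 of the 38 tested SLC25 genes in each library (x axis, CPM per kilobase of exon, log axis), ordered by the mean; filled symbols are Ep300 siRNA and open symbols control siRNA. Slc25a5 and Slc25a4 lie between 53.9 and 66.9, and for most genes the symbols of the groups overlap.

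Related carriers differed in level in both groups. Among glutamate carriers, Slc25a22 was at 1.17 ± 0.137 CPM per kilobase (SD, n = 3) after Ep300 siRNA and 1.13 ± 0.0228 in controls, and Slc25a18 at 0.195 ± 0.0877 and 0.173 ± 0.0788. Of the aspartate/glutamate carriers of the malate-aspartate shuttle, citrin (Slc25a13) was at 9.0 ± 0.480 and 8.58 ± 0.106 CPM per kilobase and aralar (Slc25a12) at 6.10 ± 0.278 and 5.90 ± 0.0905. In CPM the order was the reverse, with aralar at 44.8 and 43.3 and citrin at 34.2 and 32.6. Which of the pair is higher thus depends on the joined exon lengths, 7.342 kilobases for aralar and 3.798 for citrin. Of the uncoupling proteins, which belong to the family by sequence under other symbols, Ucp2 was at 252.9 ± 10.6 CPM (not per length) after Ep300 siRNA and 242.3 ± 15.9 CPM in controls, Ucp3 at no more than 5 counts in a library and Ucp1 at 0. Ucp2 and the outer membrane relatives Mtch1 and Mtch2 did not pass with edgeR, DESeq2 or limma-voom, and none had an unadjusted p under 0.05 (log2 fold changes of 0.06 ± 0.07, 0.05 ± 0.07 and −0.03 ± 0.06, SE).

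The other 9 members were too low to test. Slc25a31, the ADP/ATP carrier known from testis, was at 0 in every library, which allows at most 3 counts, or 0.0648 to 0.102 CPM depending on the library, counting error alone considered. This limit takes each count as separate. Most low counts were even, so counts may come in pairs and the limit may be higher. Slc25a41, Slc25a21, Slc25a27, Slc25a48, Slc25a54 and Slc25a29 reached at most 3 counts in any library, and Slc25a34 at most 11. The ornithine carrier Slc25a2 had 0, 1 and 1 counts after Ep300 siRNA against 10, 5 and 2 in controls, so its groups do not overlap. In the fit with no filter on low counts, which tested 8 of these 9 genes, none passed, and Slc25a2 alone had an unadjusted p under 0.05 (edgeR adjusted p = 0.351). At these counts the standard error of each of the 8 log2 fold changes was 0.81 or more.

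Of the carriers of adenine nucleotides and phosphate, 6 were tested, none passed, 1 had an unadjusted p under 0.05, and the log2 fold changes ran from −0.18 to 0.07. Slc25a3 was at 231.0, 218.5 and 232.6 CPM in the Ep300 siRNA libraries and 257.6, 218.6 and 229.8 CPM in the controls. Slc25a4 was at 138.0, 126.7 and 136.9 CPM against 136.6, 129.9 and 129.1 CPM. For both genes the groups overlap, with log2 fold changes of −0.05 (95% interval −0.20 to 0.10) and 0.02 (−0.11 to 0.15). Slc25a5 was at 108.2, 94.6 and 110.1 CPM against 105.9, 101.9 and 102.2 CPM, a log2 fold change of 0.01 (95% interval −0.13 to 0.16), which like that of Slc25a4 turned just below 0 on library sizes alone (−0.02 and −0.01). A pseudogene copy, Slc25a5-ps, held from 6 to 12 counts in a library, and reads shared by the 2 copies may be split.

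Slc25a24, a calcium-regulated carrier that exchanges ATP-Mg for phosphate, was at 71.1, 65.8 and 69.2 CPM after Ep300 siRNA and 78.8, 77.5 and 77.8 CPM in controls. The groups do not overlap, and the log2 fold change was −0.18 ± 0.06 (SE, edgeR adjusted p = 0.0817), which did not pass. Without TMM scaling, on library sizes alone, it did (log2 fold change −0.22, edgeR adjusted p = 0.0436). Its relatives Slc25a23 and Slc25a25 were at 0.01 ± 0.07 and 0.07 ± 0.09 (SE), the former turning to just below 0 on library sizes alone (−0.02).

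Of the carriers of cofactors and other nucleotides all 9 were tested, of which 1 fell and 8 did not pass. Slc25a51, the carrier that brings NAD into mitochondria (GRCm38 chromosome 4, 45395923 to 45408766, minus strand), was at 18.2, 18.3 and 18.5 CPM in Ep300 siRNA replicates 1, 2 and 3 and at 22.5, 20.8 and 22.9 CPM in the controls. The 3 Ep300 siRNA libraries lay together and below all 3 controls. It fell to 0.831 of the level in controls (95% interval 0.744 to 0.928), with a log2 fold change of −0.27 ± 0.07 (SE, edgeR adjusted p = 0.0499). This call sits at the threshold: of 16 alternative analyses, 12 placed it outside (edgeR, DESeq2 or limma-voom adjusted p up to 0.156), among them each of the 6 that leave out a library, while the log2 fold change stayed between −0.30 and −0.24.

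Slc25a33, a pyrimidine nucleotide carrier, was at 8.02, 5.68 and 5.48 CPM after Ep300 siRNA and 5.23, 4.32 and 4.27 CPM in controls. It was singled out after its values were seen, as the highest log2 fold change of the family, 0.46 ± 0.16 (SE), and it did not pass (edgeR adjusted p = 0.118). The groups do not overlap, but replicate 1 was the highest library in each group, and without Ep300 siRNA replicate 1 the log2 fold change was 0.28. That library also held the most reads of Gm42418, a gene lying over ribosomal RNA sequence (5823 CPM, with 1327 to 2174 CPM elsewhere); its part in the value of Slc25a33 was not tested. The call was gained with no filter on low counts (edgeR adjusted p = 0.0318) and with the replicate number as a block (0.0465). An antisense gene, Gm13068, shares 14.9% of the annotated exon bases of Slc25a33, and as the counting may not have used strand, reads of the pair may be mixed. Gm13068 itself was at 2.26 ± 0.293 CPM (SD, n = 3) after Ep300 siRNA and 2.14 ± 0.180 CPM in controls.

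The other pyrimidine nucleotide carrier, Slc25a36, was at −0.13 ± 0.08 (SE). The remaining 6 genes of this group ran from −0.31 ± 0.23 (SE) for the coenzyme A carrier Slc25a42, at 1.21 to 2.22 CPM, to 0.13 ± 0.17 for Slc25a16, and their groups overlap. They include the carriers of folate and FAD (Slc25a32) and S-adenosylmethionine (Slc25a26), and the peroxisomal Slc25a17.

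Of 3 carboxylate carriers tested, none passed and 2 had an unadjusted p under 0.05, in opposite directions. Slc25a1, the citrate carrier that feeds cytosolic acetyl-CoA for lipid synthesis, was at 27.9, 25.5 and 25.8 CPM after Ep300 siRNA and 26.8, 20.2 and 19.9 CPM in controls. Control replicate 1 lay among the Ep300 siRNA libraries and the other 2 controls below all of them. The log2 fold change was 0.24 ± 0.11 (SE, edgeR adjusted p = 0.22), and without control siRNA replicate 1 it was 0.40 and passed (edgeR adjusted p = 0.012). The dicarboxylate carrier Slc25a10 was at 15.1, 16.0 and 16.6 CPM against 20.0, 17.0 and 17.5 CPM, with a log2 fold change of −0.19 ± 0.09 (SE, edgeR adjusted p = 0.225) that was −0.11 without control siRNA replicate 1. The oxoglutarate/malate carrier Slc25a11, at 45.6, 46.0 and 51.8 CPM against 48.5, 48.7 and 41.5 CPM, overlapped between the groups (log2 fold change 0.05 ± 0.08, SE).

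None of the 10 tested carriers of amino acids, carnitine and glutathione passed, and none had an unadjusted p under 0.05 (log2 fold changes −0.19 to 0.21). The smallest p was that of Slc25a38, which imports glycine for heme synthesis, at 8.70, 9.46 and 9.21 CPM after Ep300 siRNA and 10.7, 9.95 and 10.6 CPM in controls. Its groups do not overlap, with a log2 fold change of −0.19 ± 0.09 (SE, edgeR adjusted p = 0.256). The aspartate/glutamate carriers were at 0.05 ± 0.06 (Slc25a12) and 0.07 ± 0.07 (Slc25a13), the acylcarnitine carrier Slc25a20 at −0.03 ± 0.09, the glutathione carriers Slc25a39 and Slc25a40 at −0.03 ± 0.08 and −0.11 ± 0.09, and the branched-chain amino acid carrier Slc25a44 at 0.09 ± 0.07 (log2 fold change ± SE).

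Both mitoferrins, which carry iron into the matrix for heme and iron-sulfur cluster synthesis, were lower in every Ep300 siRNA library than in any control, and neither passed the test, though both had an unadjusted p under 0.05. Slc25a37 (mitoferrin 1) was at 19.5, 21.8 and 19.7 CPM after Ep300 siRNA and 22.2, 24.7 and 25.3 CPM in controls, with a log2 fold change of −0.24 ± 0.08 (SE, edgeR adjusted p = 0.0992). Slc25a28 (mitoferrin 2) was at 11.2, 10.2 and 8.69 CPM against 12.6, 11.8 and 11.9 CPM, with −0.28 ± 0.11 (SE, edgeR adjusted p = 0.143), and −0.18 without Ep300 siRNA replicate 3. Their sum was 28.4 to 32.0 CPM in the Ep300 siRNA libraries and 34.8 to 37.2 CPM in the controls, a ratio of means of 0.838. Over the whole family the groups did not overlap for 7 of 38 tested members, 6 lower and 1 higher after Ep300 siRNA, against 27.5% of all genes tested (14.4% lower and 13.0% higher).

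**Figure D3:**
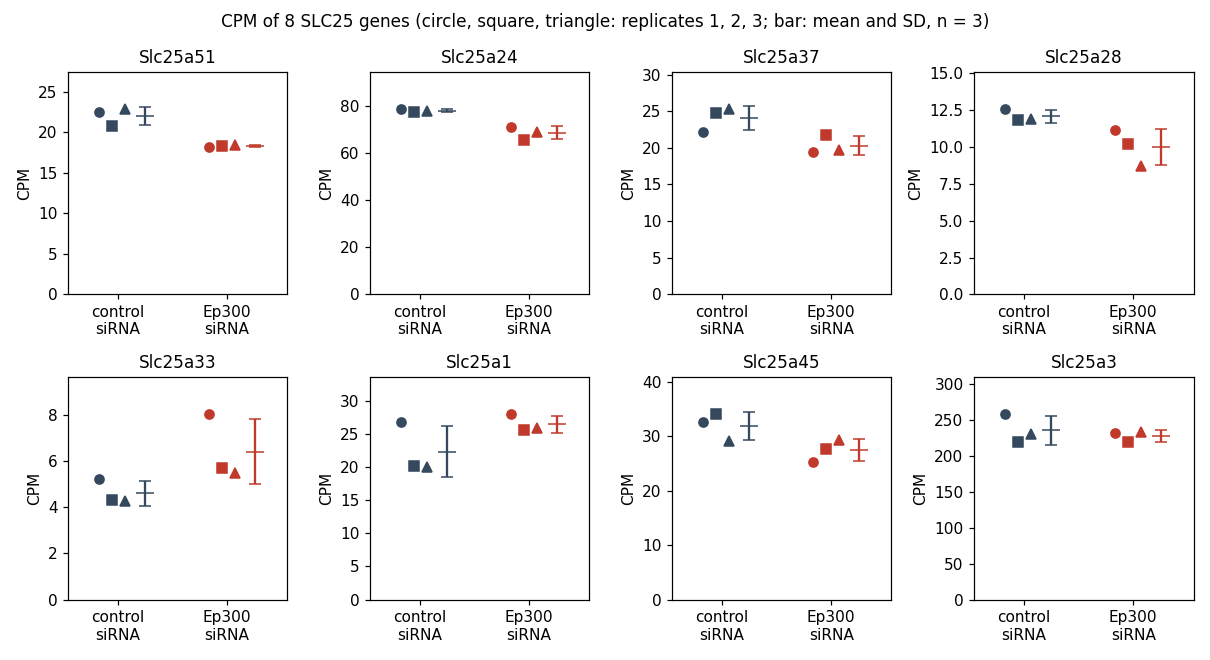
CPM (y axis, from 0) of 8 SLC25 genes in each control siRNA and Ep300 siRNA library, with the mean and SD (n = 3) beside the points. Slc25a51, Slc25a24, Slc25a37 and Slc25a28 lie lower in all 3 Ep300 siRNA libraries, replicate 1 of Ep300 siRNA is high for Slc25a33 at 8.02 CPM, and Slc25a3 overlaps between the groups.

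Of the carriers akin to uncoupling proteins, 2 were tested, and none passed or had an unadjusted p under 0.05. Slc25a30 was at 17.4, 14.9 and 17.2 CPM after Ep300 siRNA and 16.8, 19.6 and 19.5 CPM in controls, which overlap (log2 fold change −0.17 ± 0.09, SE, edgeR adjusted p = 0.311, and −0.10 without Ep300 siRNA replicate 2), and Slc25a14 was at −0.08 ± 0.17 (SE). Of the outer membrane and less characterised members, 6 were tested, none passed and 1 had an unadjusted p under 0.05. That gene, Slc25a45, was at 25.2, 27.7 and 29.2 CPM against 32.5, 34.0 and 29.1 CPM, with a log2 fold change of −0.22 ± 0.08 (SE, edgeR adjusted p = 0.134); its highest Ep300 siRNA library lay just above its lowest control. Slc25a46, an outer membrane protein of mitochondrial fission, was at 0.06 ± 0.06 (SE). The other 4 ran from −0.10 ± 0.41 for Slc25a47 to 0.19 ± 0.30 for Slc25a53, and 31.3% of the exon bases of Slc25a35 are shared with Rangrf on the other strand.

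Ratios within related pairs asked whether close relatives shifted against each other. In 3 of 9 pairs the ratios of the groups did not overlap, where 27.5% of all single genes tested did not overlap. Each of the 3 gave an exact two-sided permutation p of 0.1, the smallest that 3 against 3 allows. After adjustment over the 9 pairs it was 0.3. Each of the 3 pairs holds Slc25a33 or Slc25a24, whose own groups do not overlap. Slc25a33 over Slc25a36 was at log2 ratios of −1.27, −1.81 and −1.72 after Ep300 siRNA and −2.06, −2.19 and −2.18 in controls, a mean difference of 0.54. The mean difference was 0.20 for Slc25a23 over Slc25a24 and −0.25 for Slc25a24 over Slc25a25, and these pairs share Slc25a24. The ADP/ATP carriers (Slc25a4 over Slc25a5) differed by 0.01, aralar over citrin by −0.02 and mitoferrin 2 over mitoferrin 1 by −0.03, each with overlapping groups (exact permutation p of 0.8, 0.8 and 0.7).

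**Figure D4:**
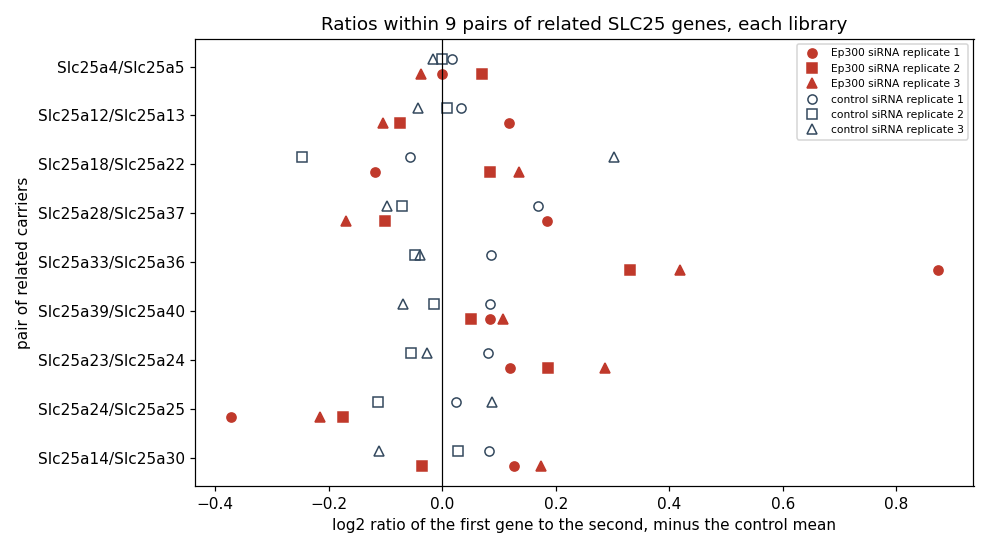
Log2 ratio of the first gene to the second in 9 pairs of related SLC25 genes (x axis, minus the mean of the 3 controls), with one symbol per library. Slc25a33/Slc25a36 lies furthest out, with Ep300 siRNA replicate 1 highest, and the pairs Slc25a4/Slc25a5 and Slc25a28/Slc25a37 overlap between groups.

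Genes that work with the carriers were read from lists. Carriers reach the inner membrane through the receptor Tomm70a, small Tim chaperones and the Timm22 insertase, and of 15 such import genes tested none passed with edgeR, DESeq2 or limma-voom, while 3, Tomm70a, Tomm20 and Tomm5, had an unadjusted p under 0.05, against 22.2% of all genes. All 3 had negative log2 fold changes (−0.19, −0.21 and −0.22), and the median of the list was −0.01. The smallest p was that of Tomm70a, at 159.1, 172.1 and 163.8 CPM after Ep300 siRNA and 182.6, 182.7 and 197.9 CPM in controls (log2 fold change −0.19 ± 0.06, SE, edgeR adjusted p = 0.0987). None of the 13 mRNAs encoded by mitochondrial DNA passed with edgeR, DESeq2 or limma-voom, and 1, mt-Cytb, had an unadjusted p under 0.05 (0.19 ± 0.08, SE, edgeR adjusted p = 0.217). Their mean levels over all libraries ran from 5.96 CPM for mt-Atp8 to 13425 CPM for mt-Co1, with mt-Co2 at 29.8 and mt-Co3 at 8.14 CPM. The cause of this spread was not tested. As the multimapping setting is not known, the low ones may be undercounted.

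Among 20 other mitochondrial channels and transporters, 2 rose, none fell and 18 did not pass, where 2.76% of all genes tested rose and 4.02% fell. In this list 5 had an unadjusted edgeR p under 0.05, against 22.2% of all genes. The log2 fold changes ran from −0.96 for Sfxn4 to 0.37 for Micu2. Sfxn4, at only 0.46 to 1.14 CPM, had an SE of 0.30 and did not pass (edgeR adjusted p = 0.0783). Micu2, a gatekeeper of the mitochondrial calcium uniporter, was at 130.1, 113.8 and 108.7 CPM after Ep300 siRNA and 90.6, 85.3 and 96.2 CPM in controls. It rose 1.30-fold (log2 fold change 0.37 ± 0.08, SE, edgeR adjusted p = 0.0145), a call lost without control siRNA replicate 2 (edgeR adjusted p = 0.0672). Sfxn3, a sideroflexin, was at 20.7, 20.4 and 19.4 CPM against 16.5, 15.7 and 16.0 CPM and rose 1.25-fold (log2 fold change 0.33 ± 0.07, SE, edgeR adjusted p = 0.0224). That call did not survive leaving out replicate 1 or 2 of Ep300 siRNA, or replicate 2 or 3 of the controls (edgeR adjusted p up to 0.0809).

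Of 12 regulators of mitochondrial genes tested, 1 fell, none rose and 11 did not pass, against the same 4.02% of falls and 2.76% of rises over all genes tested. The median log2 fold change of the list was 0.05, with 7 positive and 5 negative values. An unadjusted edgeR p under 0.05 was found for 2 of the 12, against 22.2% of all genes. Ppargc1b, a coactivator (PGC-1β) of nuclear genes for mitochondria, was at 17.1, 16.9 and 15.4 CPM in the Ep300 siRNA libraries and 20.6, 25.2 and 24.7 CPM in the controls. It fell to 0.70 of the level in controls (log2 fold change −0.51 ± 0.09, SE, edgeR adjusted p = 0.00711) and passed in all 16 alternative analyses run (edgeR, DESeq2 or limma-voom adjusted p up to 0.0457). Its relative Ppargc1a was too low to test, at no more than 0.273 CPM in a library. The other gene with an unadjusted p under 0.05, Esrra, had a positive value and did not pass (log2 fold change 0.18 ± 0.08, SE, edgeR adjusted p = 0.202). The members and partner lists were read from the same fit, and no test compared one list with another.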

How the data were processed

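The authors deposited 1 table of raw read counts per gene symbol, with 1 column per library matched to samples by title. The build was GRCm38 and the tools were STAR 2.5.3a, fastp 0.23.4, edgeR 3.12.1 and featureCounts, per the submitters' processing notes. The sources used here do not name the annotation or the strand and multimapping settings. Counts were analysed as deposited with edgeR 4.0.16 in R 4.3.3 (filterByExpr, TMM, quasi-likelihood F-test without covariate), and two-sided p-values were adjusted by Benjamini-Hochberg over 15741 genes. Libraries of a group differed by more than sampling noise (a chi-square of 8.43 to 29.6 per degree of freedom). From 79.8% to 80.9% of counts of 1 to 4 were even, so halved counts were one alternative. Counts include PCR copies, so limits from counts cover counting error alone. CPM values use TMM-scaled library sizes summed over the genes that passed the filter, so that 1 CPM was worth 29.3 to 46.3 counts depending on the library. Coordinates and exon lengths came from GENCODE M21 (GRCm38), where all 47 members matched 1 gene each; promoters came from RefSeq. Paralog ratios used CPM plus 0.5.

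Values in every library are given for members past the threshold, otherwise the smallest p of each role group, and the 5 highest per kilobase; each further list is represented by its smallest p among rises and among falls past the threshold, or by its smallest p if there are none. Slc25a10, Slc25a28, Slc25a33, Sfxn3, Sfxn4 and Esrra were added after their values were seen. One member is counted in the totals but not reported here. Members and lists were chosen with earlier results of these data known. On simulated counts for 15532 genes of this comparison, 26% of 50 genes with a planted 1.25-fold change were called. The rates were 72% with 1.5-fold, 74% with 2-fold and 96% with 4-fold. Of 151 calls, 17 fell on genes left unchanged, a larger share than the 0.05 that the threshold aims at. The data gave 1068 calls, so the adjusted threshold was stricter in the simulation. Planted genes were drawn from all tested genes, so these rates are not the power for this family. Alternatives were other scalings and filters, a replicate block, DESeq2 1.42.0, limma-voom (limma 3.58.1), halved counts, other thresholds and each library left out.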

Additional observations from a re-analysis of the deposited data

How the results depend on the processing

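The count of 1 member called became 0 with RLE or upper-quartile scaling, with DESeq2, with limma-voom and at an adjusted p under 0.01, 2 on library sizes alone (Slc25a24 and Slc25a51, both lower) and 3 at an adjusted p under 0.10; leaving out a library gave 0 to 1. The cause was not tested. With no filter on low counts, and with the replicate number as a block, the 1 member called was Slc25a33, higher, in place of Slc25a51, and without control siRNA replicate 1 it was Slc25a1. Over all genes, no filter on low counts gave 1721 calls among 30207 genes, the block 1357, and leaving out a library 490 (without control siRNA replicate 2) to 1054. The setting without mitochondrial and Gm42418 rows was chosen after seeing the data and called 1 member, Slc25a51. Ep300 passed in each of these settings. Leaving out a library moved the log2 fold change of Slc25a3 between −0.090 and 0.025, of Slc25a5 between −0.027 and 0.081 and of Slc25a11 between −0.019 and 0.097. Values near 0 changed sign: on library sizes alone Slc25a4 (−0.012) and Slc25a5 (−0.021), without Ep300 siRNA replicate 1 Slc25a5 (−0.0044), without Ep300 siRNA replicate 3 Slc25a5 (−0.027) and Slc25a11 (−0.014), without control siRNA replicate 1 Slc25a3 (0.025) and without control siRNA replicate 3 Slc25a11 (−0.019). The ratio of Slc25a18 to Slc25a22 turned from 0.034 to −0.0055 with a pseudocount of 2 CPM. Deviations from the group mean correlated at 0.14, 0.023 and −0.052 between same-numbered libraries and at −0.15 to 0.15 between differently numbered ones. The main fit did not take the numbers to pair the samples, but these few values cannot settle whether they do. With the number as a block, the standard error of Slc25a33 was 0.13, against 0.16 in the main fit. At this depth members under about 2 CPM have standard errors of 0.23 to 0.47 on the log2 scale, too wide to bound their change at 1.5-fold.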
